A study of Arabidopsis thaliana with 12 samples.

Results

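The 8 genes described here belong to the abscisic acid and dehydration response of Arabidopsis thaliana. They were chosen by locus: RAB18 (AT5G66400), RD29B (AT5G52300, also named LTI65), HAI3 (AT2G29380), KIN1 (AT5G15960), KIN2 (AT5G15970), CYP707A3 (AT5G45340), PYL6 (AT2G40330) and LEA14 (AT1G01470). All 8 stood in at least 1 of 3 deposited tables, which together held 2424 genes. Roots of 8-day-old seedlings grown in the dark on half-strength medium were sequenced in 4 genotypes with 3 libraries each. Col, labelled wild type (Col-0), was the control of every comparison. LBD29-OE overexpressed the transcription factor LBD29 (Pro35S:LBD29-6Gly), and MYB2-OE overexpressed the transcription factor MYB2 (Pro35S:MYB2). MYB2-SRDX carried 35S::MYB2-SRDX (MYB2 joined to a plant repression domain), which the labels call dominant negative. The 35S promoter is active in most plant tissues, so the transgenes were not limited to the cells that normally express these factors.

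Abscisic acid is the hormone by which plants signal water shortage. Receptors of the PYR/PYL family bind it and then inhibit clade A protein phosphatases 2C, which frees SnRK2 kinases to activate transcription factors that bind abscisic acid response elements (ABREs) in promoters. Their target genes encode dehydrins, late embryogenesis abundant (LEA) proteins and other small hydrophilic proteins that accumulate in drying or cold tissue and in maturing seeds. Cytochrome P450 enzymes of the CYP707A family break the hormone down. MYB2 is itself known as a drought- and abscisic acid-induced regulator.

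The 250 bases before the annotated start are shown for 5 of the genes. RD29B and HAI3 were called higher in LBD29-OE and lower in MYB2-SRDX by the authors, PYL6 was called in the opposite directions, and KIN1 and KIN2 are neighbouring copies. They come from the RefSeq annotation of TAIR10.1 and are written 5′ to 3′ on the strand of the gene. Capitals mark ACGTG (the ABRE core), CCGAC (the core of the dehydration-responsive element), TAACTG (a MYB site) and GCGGCG (a motif of LBD factors), searched on both strands. The windows are RD29B chr5:21236771-21237020 (plus strand), HAI3 chr2:12608425-12608674 (plus strand), KIN1 chr5:5209467-5209716 (plus strand), KIN2 chr5:5211469-5211718 (plus strand) and PYL6 chr2:16846195-16846444 (minus strand).
RD29B: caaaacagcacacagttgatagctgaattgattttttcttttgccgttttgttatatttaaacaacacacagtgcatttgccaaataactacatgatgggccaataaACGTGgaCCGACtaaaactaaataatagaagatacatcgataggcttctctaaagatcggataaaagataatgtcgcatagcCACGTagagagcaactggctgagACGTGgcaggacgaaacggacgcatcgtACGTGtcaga
HAI3: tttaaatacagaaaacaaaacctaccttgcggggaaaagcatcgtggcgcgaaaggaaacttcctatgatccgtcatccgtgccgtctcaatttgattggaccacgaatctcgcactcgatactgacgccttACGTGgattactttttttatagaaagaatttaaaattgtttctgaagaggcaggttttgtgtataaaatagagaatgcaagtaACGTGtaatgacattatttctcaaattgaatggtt
KIN1: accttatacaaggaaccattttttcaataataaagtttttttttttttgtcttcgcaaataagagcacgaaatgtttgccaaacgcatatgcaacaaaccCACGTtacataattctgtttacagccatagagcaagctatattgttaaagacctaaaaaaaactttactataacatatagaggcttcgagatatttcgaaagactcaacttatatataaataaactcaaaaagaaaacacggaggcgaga
KIN2: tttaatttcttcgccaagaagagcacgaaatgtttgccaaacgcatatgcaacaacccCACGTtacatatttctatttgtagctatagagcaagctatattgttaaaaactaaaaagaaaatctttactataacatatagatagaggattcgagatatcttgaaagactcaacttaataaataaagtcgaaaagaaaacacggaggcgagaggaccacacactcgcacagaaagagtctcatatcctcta
PYL6: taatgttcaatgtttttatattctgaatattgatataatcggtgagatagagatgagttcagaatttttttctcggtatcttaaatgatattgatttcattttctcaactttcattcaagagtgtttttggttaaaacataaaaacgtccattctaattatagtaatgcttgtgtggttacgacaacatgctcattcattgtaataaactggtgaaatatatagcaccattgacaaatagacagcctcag

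The ABRE core occurred in the windows of 7 of the 8 genes, PYL6 being the one without a match, and in 22.9% of 27443 windows of protein-coding genes. RD29B held 4 positions, 143, 61, 38 and 10 bases before the start, and HAI3 held 2, at 118 and 35 bases. RAB18 had 3 matches in a window that overlaps the neighbouring gene AT5G66410. KIN1 and KIN2 had 1 each, LEA14 had 2, and CYP707A3 had 2 overlapping positions of 1 palindrome. The dehydration-responsive core was present in RD29B alone (12.0% of all windows) and the MYB site in LEA14 alone (8.12%). The LBD motif was found in 0 of the 8 windows and in 1.56% of all windows. These matches describe the letters of the windows, and binding was not measured.

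Each deposited table listed only genes that the authors called, with an absolute log2 fold change above 1 and a Q-value (their adjusted p) of at most 0.000999. A gene outside a table therefore has no library value for that line. FPKM are levels scaled for gene length and library size, and the depth of the libraries is unknown. In whole roots, fewer cells of a type and less RNA per cell cannot be told apart. The transgenes matched their labels: LBD29 was 477 to 603 FPKM in LBD29-OE, and MYB2 was 375 to 636 FPKM in MYB2-OE and 445 to 538 FPKM in MYB2-SRDX, against at most 3.08 and 1.01 FPKM in Col. The MYB2 levels of MYB2-OE and MYB2-SRDX overlapped, so this check cannot tell those lines from each other. Of 10 root markers only PRP1 was listed, for LBD29-OE, so the labelled tissue could not be checked on the rest. In each line 1 library stood apart. Replicate 2 of LBD29-OE had a summed level of 259 FPKM over the 7 listed green tissue markers (5 higher and 2 lower of a list of 9), where replicates 1 and 3 summed to 11.6 and 14.0 FPKM and Col to 102 to 132 FPKM. Replicate 2 of MYB2-OE held LBD29 at 109 FPKM, with 1.82 and 1.93 FPKM in its replicates 1 and 3; its 5 listed green markers (1 higher, 4 lower) summed to 11.3 to 14.8 FPKM over the line and to at most 14.2 FPKM in Col. For MYB2-SRDX, the library with a column ending in 1 held 3 of 9 seed storage genes (CRA1, OLEO1 and OLEO2) at a summed 3.98 FPKM, where its other libraries were at 0 and Col at up to 0.05 FPKM. Its 3 listed green markers (2 higher, 1 lower) summed to 26.0, 1.59 and 1.19 FPKM, against 6.02 to 9.21 FPKM in Col. The part of these libraries in the results was not tested, except where a value without them is given.

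Across the lines the 8 genes gave 13 calls, summarised first. LBD29-OE had 4 members listed, 3 higher and 1 lower, where 41.8% of its 802 listed genes were higher and 58.2% lower. MYB2-OE had 1 higher and 3 lower, where 52.4% of 1271 genes were higher and 47.6% lower. MYB2-SRDX had 1 higher and 4 lower, where 52.9% of 1045 genes were higher and 47.1% lower. PYL6 was the 1 member in all tables, 3 members stood in 2 tables and 4 in 1. The median of the authors' log2 fold changes of the listed members was 1.18 in LBD29-OE, -1.40 in MYB2-OE and -1.32 in MYB2-SRDX, against -1.09, 1.03 and 1.04 over all listed genes. No listed gene lies between -1 and 1, so such a median follows the majority direction and says little about size. Library values of Col and the line did not overlap for 4 of 4, 4 of 4 and 4 of 5 members in these tables, where 85.2, 91.7 and 74.8% of all listed genes did not overlap.

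**Figure D1:**
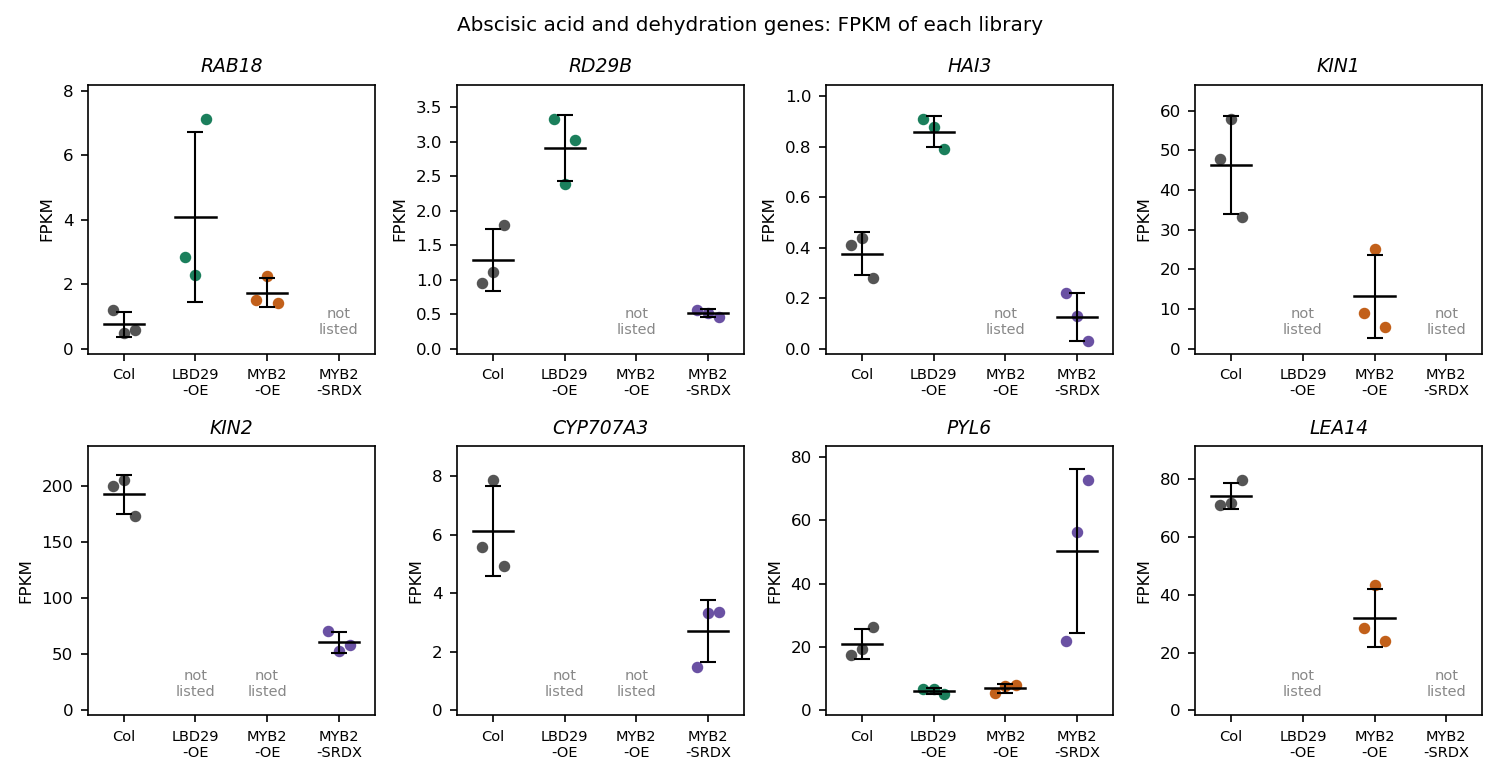
FPKM of the 8 genes (1 panel each, vertical axis linear from 0) in every library of the 4 genotypes; points are libraries, bars are the mean and SD of 3 libraries, and "not listed" marks a line whose table did not hold the gene. RD29B and HAI3 lay above Col in LBD29-OE and below it in MYB2-SRDX, whereas PYL6 lay below Col in both overexpressing lines and above it in 2 of the 3 MYB2-SRDX libraries.

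Among the members that signal abscisic acid, the receptor gene PYL6 fell in both overexpressing lines and had a higher mean in MYB2-SRDX. Its level in Col was 17.4, 19.3 and 26.2 FPKM. In LBD29-OE it was 6.75, 6.70 and 5.17 FPKM, and in MYB2-OE it was 5.37, 7.69 and 7.98 FPKM. All 6 libraries of the overexpressing lines lay below all Col libraries. The ratio of means was 0.296 in LBD29-OE and 0.335 in MYB2-OE (log2 of -1.76 and -1.58). Using limma on log2(FPKM + 1) over the genes of each table, the adjusted p was 0.000815 and 0.00110 (log2 difference -1.60, SE 0.185, and -1.45, SE 0.207). In MYB2-SRDX the libraries measured 21.8, 56.2 and 72.5 FPKM, the first being the library with seed storage transcripts and lying inside the Col range. Here the mean was 2.39 times that of Col, the authors' deposited table gave a Q of 7.68e-274, and limma gave an adjusted p of 0.0875, so the call did not pass a test that reads the spread between libraries. Without the highest of these libraries, with a column ending in 3, its log2 ratio was 0.90.

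HAI3 encodes a clade A protein phosphatase 2C, a brake on the pathway that abscisic acid itself induces. It was the lowest of the 8 genes, at 0.410, 0.440 and 0.280 FPKM in Col. LBD29-OE libraries measured 0.910, 0.880 and 0.790 FPKM and MYB2-SRDX libraries 0.220, 0.130 and 0.0300 FPKM. The groups did not overlap, and HAI3 stood highest in LBD29-OE, then Col, then MYB2-SRDX. Means differed from Col by a factor of 2.28 upward and 2.97 downward. The downward log2 ratio of -1.57 went to -2.24 without the library that stands apart. It went to -1.11 without the lowest library, with a column ending in 3. Adjusted p by limma was 0.0107 for the rise, while the lower value in MYB2-SRDX missed the threshold (log2 difference -0.29, SE 0.120, adjusted p 0.0804). Levels are deposited in steps of 0.01 FPKM, which is coarse beside the lowest value.

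CYP707A3 encodes an abscisic acid 8′-hydroxylase, the enzyme that starts breakdown of the hormone. Its Col libraries measured 5.57, 7.86 and 4.93 FPKM and its MYB2-SRDX libraries 1.48, 3.32 and 3.35 FPKM. Every MYB2-SRDX library was below Col, and the lowest was the one that stands apart. The mean was 2.25-fold lower, with a limma adjusted p of 0.0311 (log2 difference -0.96, SE 0.284). It stood under 2-fold without that library (log2 of -0.88) or without Col replicate 2 (-0.95). In LBD29-OE the authors' deposited table repeats a log2 of -0.09 with a Q of 0.157 for CYP707A3.

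Among the target genes, RAB18 rose in both overexpressing lines. It encodes a dehydrin used as a marker of abscisic acid responses and measured 1.21, 0.490 and 0.600 FPKM in Col. In LBD29-OE it reached 2.86, 2.28 and 7.12 FPKM, with replicate 3 far above the others, and in MYB2-OE 1.53, 2.25 and 1.43 FPKM. Neither line overlapped Col. The means rose 5.33-fold in LBD29-OE (limma adjusted p 0.0121, log2 difference 1.43, SE 0.361) and 2.27-fold in MYB2-OE (adjusted p 0.0205, log2 difference 0.64, SE 0.199). Without replicate 3 the LBD29-OE log2 ratio was 1.75, still the largest rise of a member. The MYB2-OE ratio stood under 2-fold without Col replicate 2 (log2 of 0.94) or without MYB2-OE replicate 2 (0.95), the library that also held LBD29 at 109 FPKM.

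RD29B, a hydrophilic protein gene whose promoter is a classical ABRE target, went in opposite directions in LBD29-OE and MYB2-SRDX. Col libraries measured 0.950, 1.12 and 1.80 FPKM, LBD29-OE libraries 3.33, 2.39 and 3.02 FPKM, and MYB2-SRDX libraries 0.570, 0.520 and 0.460 FPKM. The 3 groups were fully separated, in the order LBD29-OE, Col, MYB2-SRDX. Its mean was 2.26-fold higher in LBD29-OE and 2.50-fold lower in MYB2-SRDX, with limma adjusted p of 0.00805 and 0.0280. Without Col replicate 1 the rise was at the 2-fold limit (log2 of 1.00, just under).

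KIN1 and KIN2 encode small cold- and abscisic acid-inducible proteins. The genes lie 892 bases apart on chromosome 5, and their coding sequences are identical at 191 of 201 bases (95.0%). Reads could be split between the copies by the authors' counting, which is not given in the sources used here, so each level is uncertain on its own. KIN1 was listed for MYB2-OE and measured 8.98, 25.1 and 5.58 FPKM there against 47.9, 57.9 and 33.2 FPKM in Col. Replicate 2, the library with LBD29 transcripts, was the highest of the line and still below Col. The mean was 3.51-fold lower (limma adjusted p 0.00982, log2 difference -1.95, SE 0.500). The log2 ratio of -1.81 went to -2.67 without replicate 2 and to -1.45 without replicate 3 of MYB2-OE.

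KIN2 was the most abundant of the 8 genes and was listed for MYB2-SRDX. Col libraries measured 200, 205 and 173 FPKM, and MYB2-SRDX libraries 71.0, 52.7 and 58.4 FPKM. Its 3 libraries lay close together and far from Col. The mean fell 3.17-fold, with a limma adjusted p of 0.00114 (log2 difference -1.66, SE 0.154). In LBD29-OE the authors' deposited table gave log2 values of 0.12 for KIN1 and 0.14 for KIN2, both well inside 2-fold. The authors' Q-values for these small differences were 0.00287 and 2.54e-11. KIN1 was not called in MYB2-SRDX and KIN2 was not called in MYB2-OE, so the authors' calls differed between the copies in both lines. The copy that was not called has no library value there, so how far the levels of the copies differed is not known.

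LEA14, a late embryogenesis abundant protein gene, measured 71.1, 71.7 and 79.4 FPKM in Col and 28.4, 43.4 and 24.1 FPKM in MYB2-OE. The groups did not overlap and replicate 2 was again nearest to Col. Its mean was 2.32-fold lower, with a limma adjusted p of 0.00241 (log2 difference -1.23, SE 0.220). The authors' deposited table gave LEA14 a log2 of -0.21 in LBD29-OE, with a Q of 1.11e-14. With the values that the MYB2 tables repeat, all 8 members have an authors' fold for LBD29-OE, and 4 of them were under 2-fold there.

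**Figure D2:**
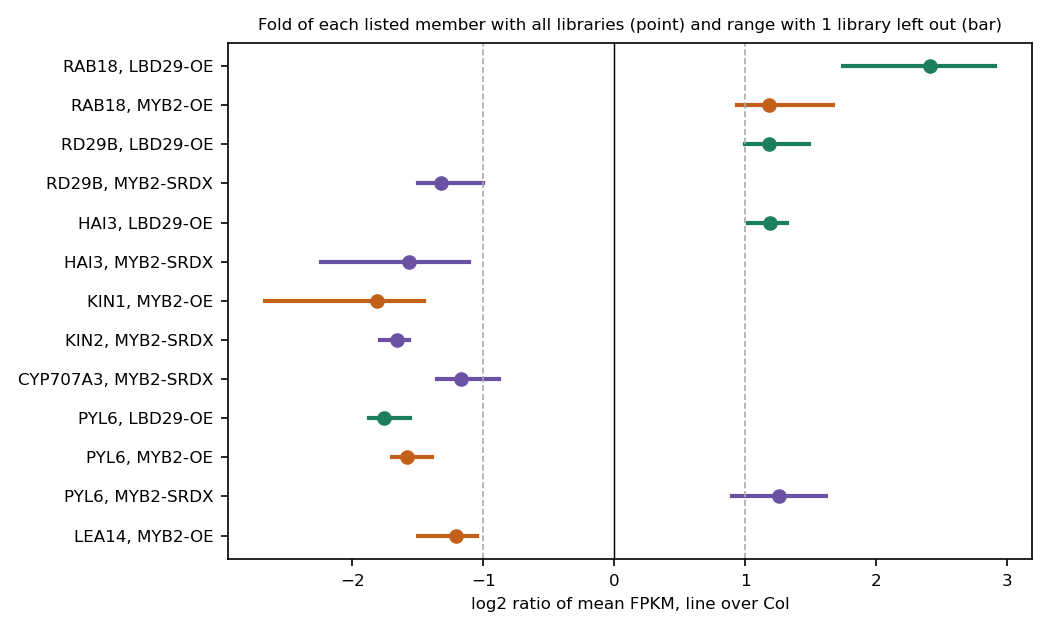
Log2 ratio of mean FPKM, line over Col, for the 13 listed pairs of member and line (rows); points use all libraries, horizontal bars span the values with each 1 of the 6 libraries left out, dashed lines mark 2-fold, and the 3 lines are coloured green (LBD29-OE), orange (MYB2-OE) and purple (MYB2-SRDX). No bar crossed 0, and 4 of the 13 reached inside 2-fold at some point: RAB18 in MYB2-OE, RD29B in LBD29-OE, and CYP707A3 and PYL6 in MYB2-SRDX.

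By limma, 4 of 4 members passed an adjusted p of 0.05 in LBD29-OE (79.9% of all listed genes passed), 4 of 4 in MYB2-OE (86.7%) and 3 of 5 in MYB2-SRDX (58.7%). The fold stayed at 2 or more whichever library was left out for 3 of 4, 3 of 4 and 3 of 5 members, where 66.7, 74.6 and 58.8% of all listed genes did so. With 4 or 5 members in a table these counts are given beside those shares and nothing particular to the members is read from them. With 3 libraries against 3 an exact two-sided permutation test of a single gene cannot go below p = 0.1, and 12 of the 13 pairs stood at that value.

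Lines were also compared with each other directly, without Col, for members listed in both tables (6 comparisons). The members were listed because each line differed from Col, so the direction of these differences was largely set by the listing. RD29B was 5.64-fold and HAI3 6.79-fold lower in MYB2-SRDX than in LBD29-OE, with limma log2 differences of -1.36 (SE 0.123, adjusted p 0.000734) and -0.73 (SE 0.101, adjusted p 0.00273) over the 227 genes in both tables, of which 52.4% passed. PYL6 was 8.08-fold higher in MYB2-SRDX than in LBD29-OE (adjusted p 0.00599) and 7.15-fold higher than in MYB2-OE (adjusted p 0.00412, 66.2% of 299 genes passing). Every MYB2-SRDX library of PYL6 exceeded every library of the overexpressing lines. Between the overexpressing lines RAB18 was 2.35-fold higher in LBD29-OE without passing (log2 difference of MYB2-OE minus LBD29-OE -0.79, SE 0.376, adjusted p 0.250). PYL6 in these lines overlapped, at a log2 difference of 0.14 (SE 0.178, adjusted p 0.720). In that comparison 16.3% of 283 genes passed.

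The rest of the pathway was read from lists of 90 genes, 82 of them outside the 8 members. Of these 82, 20 stood in at least 1 table. LBD29-OE had 6 higher and 3 lower, MYB2-OE 4 higher and 3 lower, and MYB2-SRDX 1 higher and 9 lower, where 41.8, 52.4 and 52.9% of all listed genes were higher. By limma these calls passed an adjusted p of 0.05 apart from BGLU18 in MYB2-OE (0.180), NAC055 and LTP4 in LBD29-OE (0.148 and 0.0547) and DREB2A in MYB2-SRDX (0.0793), where 79.9, 86.7 and 58.7% of all listed genes passed. The median of the authors' log2 fold changes was 1.31, 1.01 and -1.56, against -1.09, 1.03 and 1.04 over all listed genes. The 26 target genes, members included, gave 6 higher and 0 lower in LBD29-OE, 2 higher and 2 lower in MYB2-OE, and 0 higher and 6 lower in MYB2-SRDX. The same shares of all listed genes apply. The other targets of the list were not in the table of the line and have no library value there.

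**Figure D3:**
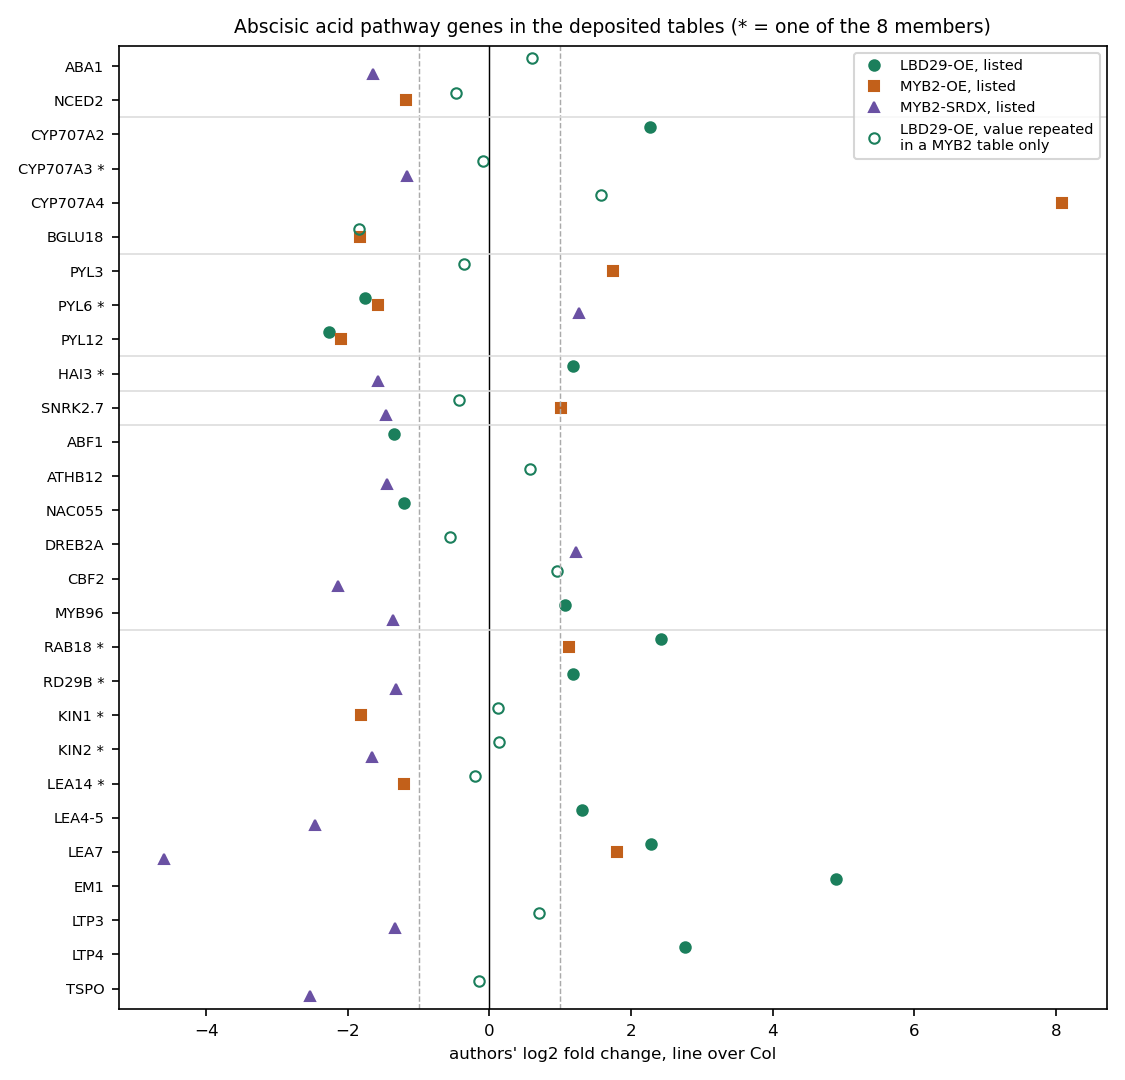
Authors' log2 fold change over Col (horizontal axis, dashed lines at 2-fold) for the 28 pathway genes that stood in a table (rows, grouped by role, asterisks for the 8 members); filled symbols are listed genes, open circles are LBD29-OE values that only the MYB2 tables repeat. Filled circles of target genes, in the lowest block, all lie to the right of 0 and triangles to the left, with LEA7 at 2.28 in LBD29-OE, 1.80 in MYB2-OE and -4.60 in MYB2-SRDX.

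LEA7, a late embryogenesis abundant protein gene, was the 1 pathway gene outside the members that was listed for all 3 lines. Its Col libraries measured 2.99, 3.48 and 2.03 FPKM. Those of LBD29-OE measured 9.95, 9.78 and 21.4 FPKM, and those of MYB2-OE 13.9, 7.69 and 7.90 FPKM. In MYB2-SRDX it was 0.170, 0.120 and 0.0600 FPKM. By limma its adjusted p was 0.00300, 0.00226 and 0.00126. The overexpressing lines lay above Col in all 6 libraries and MYB2-SRDX below it in all 3. LEA4-5, of another LEA group, followed at 7.36, 6.42 and 11 FPKM in LBD29-OE and 1.12, 0.370 and 0.320 FPKM in MYB2-SRDX, against 3.38, 2.55 and 4.08 FPKM in Col. Without the MYB2-SRDX library that stands apart its log2 ratio there went from -2.47 to -3.27. It went to -2.16 without the MYB2-SRDX library with a column ending in 3. Replicate 3 of LBD29-OE was the highest of its line for RAB18, LEA7 and LEA4-5 alike, and again for the lipid transfer protein gene LTP4 (3.82 FPKM, with 0.870 and 0.810 FPKM in replicates 1 and 2 and 0.530, 0.290 and 0 FPKM in Col). The LTP4 log2 ratio of 2.75 went to 1.62 without that replicate, to 3.66 without Col replicate 1 and to 2.16 without Col replicate 3. EM1, an embryo LEA gene, was listed at 0 in Col and at 0.260, 0.190 and 0.430 FPKM in LBD29-OE. Replicate 3 was thus also the highest for EM1, as it was for the pathway genes CYP707A2 and MYB96, but not for RD29B and HAI3. Without replicate 3, the pathway genes higher in LBD29-OE by 2-fold or more, members included, went from 9 to 8. None of the 9 seed storage genes was listed for LBD29-OE, and their levels in that line are not known.

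The calls in MYB2-SRDX are given by step of the pathway, where 47.1% of all listed genes were lower. Few genes were called at each step, so nothing about single steps is read from these counts. Lower were 1 of 10 synthesis genes, 1 of 7 breakdown and conjugation genes, 1 of 9 phosphatases and 1 of 5 SnRK2 kinases. Among 19 transcription factors 3 were lower and 1 higher, and among 14 receptors 0 were lower and 1 higher. The phosphatase HAI3 and the higher genes PYL6 and DREB2A did not pass limma (adjusted p 0.0804, 0.0875 and 0.0793). The breakdown gene CYP707A3 stood under 2-fold without the library that stands apart (log2 of -0.88) or without Col replicate 2 (-0.95). ABA1, the zeaxanthin epoxidase of abscisic acid synthesis, went from 20.0 ± 1.79 to 6.35 ± 0.166 FPKM (SD, n = 3). SNRK2.7, a SnRK2 kinase gene, went from 16.3 ± 1.62 to 5.92 ± 2.11 FPKM in MYB2-SRDX and to 32.7 ± 4.32 FPKM in MYB2-OE (SD, n = 3). Among transcription factors, MYB96, an abscisic acid and cuticular wax regulator, went from 2.14 ± 0.484 to 0.830 ± 0.175 FPKM in MYB2-SRDX and to 4.45 ± 1.25 FPKM in LBD29-OE (SD, n = 3). CBF2, a cold response factor, and ATHB12, a homeodomain factor induced by drought, were also lower in MYB2-SRDX, at log2 values of -2.14 and -1.44 in the authors' deposited table. TSPO, an abscisic acid-induced membrane protein gene, measured 0.780, 0.370 and 0.140 FPKM, the first being the library that stands apart, and 1.43, 2.1 and 3.92 FPKM in Col. Its log2 ratio went from -2.53 to -3.28 without that library and to -2.04 without Col replicate 3. The lipid transfer protein gene LTP3 went from 24.0 ± 6.15 to 9.55 ± 0.380 FPKM (SD, n = 3). DREB2A, a factor of drought and heat responses, was listed as higher, but its libraries measured 6.46, 17.7 and 17.4 FPKM against 4.65, 5.78 and 7.57 FPKM in Col, and the library that stands apart overlapped Col, as it did for PYL6.

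**Figure D4:**
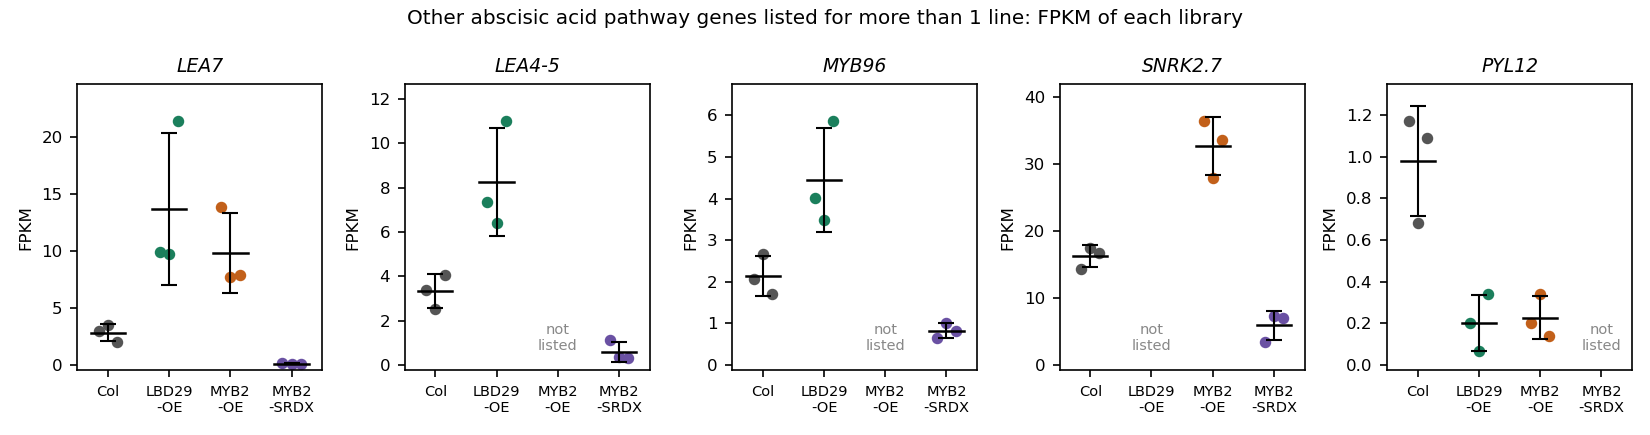
FPKM per library (vertical axes linear from 0) of the 5 pathway genes outside the 8 members that were listed for more than 1 line; points are libraries and bars the mean and SD of 3 libraries. LEA7, LEA4-5 and MYB96 were above Col in LBD29-OE and below it in MYB2-SRDX, SNRK2.7 was above Col in MYB2-OE and below it in MYB2-SRDX, and PYL12 was below Col in both overexpressing lines.

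Several other receptor and hormone genes were listed for the overexpressing lines at low levels. PYL12, a receptor gene like PYL6, went from 0.980 ± 0.263 FPKM in Col to 0.203 ± 0.135 FPKM in LBD29-OE and 0.227 ± 0.103 FPKM in MYB2-OE (SD, n = 3), and the receptor gene PYL3 from 0.227 ± 0.0231 to 0.763 ± 0.215 FPKM in MYB2-OE. The PYL12 log2 ratio of -2.27 in LBD29-OE went to -2.86 without replicate 3 of that line. It went to -1.86 without replicate 2, the library that stands apart. CYP707A4, a second hydroxylase gene of the CYP707A3 family, measured 0.0300, 0 and 0 FPKM in Col and 1.95, 1.45 and 4.52 FPKM in MYB2-OE. Its log2 ratio of 8.04 rests on 1 Col library above 0 and went to 7.41 without MYB2-OE replicate 3. CYP707A2, of the same family, was 0.200, 0.310 and 0.400 FPKM in LBD29-OE against at most 0.1 FPKM in Col. NCED2, a synthesis gene, was lower in MYB2-OE, at 0.290, 0.290 and 0.200 FPKM where Col measured 0.650, 0.550 and 0.590 FPKM (limma adjusted p 0.0232). BGLU18, whose enzyme releases the hormone from its glucose ester, was listed as lower there and did not pass limma. Its libraries measured 0, 0.120 and 0.05 FPKM, with 0.230, 0.200 and 0.140 FPKM in Col, and its log2 ratio of -1.75 went to -2.93 without replicate 2 and to -1.16 without replicate 1. ABF1, a factor that binds ABREs, fell from 12.4 ± 3.49 to 4.78 ± 0.584 FPKM in LBD29-OE (SD, n = 3). NAC055 was listed as lower there, yet its libraries of 0.670, 0.790 and 0.300 FPKM overlapped the Col values of 0.530, 1.19 and 2.35 FPKM, and its log2 ratio was -0.55 without Col replicate 3. MYB96 in LBD29-OE and SNRK2.7 in MYB2-OE stood just under 2-fold without 1 of several libraries, at lowest log2 values of 0.81 and 0.92.

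Genes with the most similar pattern to a member were found by Pearson's r of log2(FPKM + 1) over the Col libraries and the lines that list it. RAB18 was closest to AT3G17520 and AT5G66780 over 9 libraries (r of 0.954 and 0.929 among 282 genes), both annotated in the deposited tables as LEA proteins, and then to the nucleoside transporter gene ENT6 (0.924). RD29B was closest to QQS (0.967), the hydrolase family gene AT1G13610 (0.953) and LEA4-5 (0.950) among 226 genes. HAI3 was closest to 3 small heat shock protein genes, AT1G59860, AT1G07400 and HSP23.6-MITO (r of 0.980, 0.976 and 0.972), also over 9 libraries. PYL6, over all 12 libraries and 114 genes, was closest to the carbonic anhydrase gene ACA2 (0.983), AT4G21870 (0.974) and AT4G33980 (0.972). The other members were compared over the 6 libraries of a single table, where r mostly follows the gap between Col and 1 line. KIN1 was closest to AT1G58170, GH9B5 and AT1G14630 (0.993, 0.992 and 0.988), and LEA14 to CEP3, AT4G15765 and AT4G35160 (each 0.999), among 1270 genes. KIN2 was closest to PLC1, AT5G05960 and AT1G66020 (0.997, 0.997 and 0.996), and CYP707A3 to CKX1, LBO1 and SP1L2 (0.979, 0.975 and 0.970), among 1044 genes. These correlations are descriptions over shared libraries among genes that had all been called.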

How the data were processed

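RNA from roots was sequenced in 12 libraries, 3 for each of 4 genotypes, and groups were taken from the labels. Nothing in the labels says that the libraries of a genotype came from separate plantings, so p-values measure the spread between these libraries, which may be technical. The MYB2-SRDX columns carry a name that matches no single title, so that group has no replicate numbers.

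The authors deposited 3 tables with FPKM per library and, per the file headers, the authors' log2 fold change with p-values and Q-values. TAIR10 is the build in the submitters' processing notes. For the aligner, the counting and the authors' test, the sources used here give no name. Col values of genes in more than 1 table were the same (largest difference 0 FPKM).

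The 8 members, the lists and the tests were chosen with earlier results of these data known. The call was the authors' own, beside the log2 ratio of mean FPKM. limma 3.58.1 was run in R 4.3.3 on log2(FPKM + 1), which understates changes of low genes. It used all genes of a table or of a pair of tables, with Benjamini-Hochberg adjustment, and so starts from genes the authors had selected. A run on simulated data, in which most genes were unchanged, did not copy that selection, and no call rests on it. Named genes were the members, every listed pathway gene, the 3 most similar genes per member, and the transgenes. The motif windows, read from the RefSeq genome TAIR10.1, were added after the tables were seen. Depth is unknown, so no counting interval is given.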

Additional observations from a re-analysis of the deposited data

How the results depend on the processing

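Across the 13 pairs of member and line, leaving out 1 library gave 72 values on the same side of 2-fold and 6 under it, with no change of direction. Those 6 came from RD29B in LBD29-OE (range 1.00 to 1.49), RAB18 in MYB2-OE (0.94 to 1.67), CYP707A3 in MYB2-SRDX (-1.35 to -0.88) and PYL6 in MYB2-SRDX (0.90 to 1.62). A pseudocount of 1 FPKM, which by construction shrinks low genes, brought 6 pairs under 2-fold: RD29B and HAI3 in LBD29-OE (0.77 and 0.43), RAB18 in MYB2-OE (0.63), and RD29B, HAI3 and CYP707A3 in MYB2-SRDX (-0.59, -0.29 and -0.94). By medians CYP707A3 was at -0.75. By limma, HAI3 (-0.29) and PYL6 (1.08) in MYB2-SRDX missed the threshold. A pseudocount of 0.1 FPKM changed none of the 13, and a minimum of 1 FPKM removed both HAI3 pairs and changed no other. The replicate block, possible for LBD29-OE and MYB2-OE only, changed no call of a member there (8 of 8 passed, as without it; for RAB18 in MYB2-OE the log2 difference was 0.64 and the adjusted p 0.0382). With the block the pathway genes higher in LBD29-OE by limma went from 8 to 6 and those lower in MYB2-OE from 5 to 4. CYP707A2 and EM1 in LBD29-OE (adjusted p 0.0970 and 0.0603) and NCED2 in MYB2-OE (0.0754) were the calls lost. Same-numbered libraries share a number in the labels, and whether they shared a harvest or batch was not tested. Over the listed genes the correlations of their deviations from the group means were -0.09 to 0.02. No paired analysis was possible for MYB2-SRDX because the numbers in its column names match no single sample title.

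The larger changes of counts are given below, and smaller ones also occurred. Among the smaller ones, pathway genes higher in LBD29-OE went from 9 to 6 with a minimum of 1 FPKM. Members higher in LBD29-OE went from 3 to 2 with that minimum or without Col replicate 1. Members lower in MYB2-SRDX went from 4 to 3 by medians and by limma. With a pseudocount of 1 FPKM the members higher in LBD29-OE went from 3 to 1, those higher in MYB2-OE from 1 to 0, and those lower in MYB2-SRDX from 4 to 1. Pathway genes, members included, went with it from 9 to 4 higher and 4 to 2 lower in LBD29-OE, from 5 to 2 higher and 6 to 3 lower in MYB2-OE, and from 13 to 8 lower in MYB2-SRDX. A minimum of 1 FPKM also left 3 lower in MYB2-OE. By limma 0 members and 0 pathway genes were higher in MYB2-SRDX, against 1 and 2 by the authors' call. Without the library that stands apart, an alternative chosen after the data were seen, 0 members were higher in MYB2-OE and 3 were lower in MYB2-SRDX. Leaving out 1 library, higher members ranged from 0 to 1 in MYB2-OE and 0 to 1 in MYB2-SRDX, and higher pathway genes in MYB2-SRDX from 1 to 2. The direct comparisons of lines that passed by limma (RD29B -1.36, HAI3 -0.73, PYL6 2.68 and 2.53) could not pass an exact permutation test, whose smallest p is 0.1. The unknown depth limits most what can be said of HAI3, EM1 and the other genes below 1 FPKM.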

Other observations

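The gene annotation in the deposited tables marks further genes as responding to abscisic acid, beyond the lists used above. Outside those lists, 24 such genes were listed for LBD29-OE (13 higher, 11 lower), 36 for MYB2-OE (24 higher, 12 lower) and 36 for MYB2-SRDX (19 higher, 17 lower). For response to water deprivation, 5 were higher and 15 lower in LBD29-OE, 9 and 10 in MYB2-OE, and 15 and 11 in MYB2-SRDX, again outside the lists. Over all listed genes the share that was higher was 41.8% in LBD29-OE, 52.4% in MYB2-OE and 52.9% in MYB2-SRDX. These annotated genes were chosen after the tables were seen and get no test.

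Among the annotated abscisic acid genes with a group mean of at least 10 FPKM, the 2 with the largest fold in each direction are given for each line, the transgenes aside. In LBD29-OE, MBF1C, a coactivator gene known from heat responses, went from 10.4 ± 3.93 to 44.4 ± 8.74 FPKM and the gene AT3G22060 from 9.27 ± 1.33 to 35.0 ± 10.4 FPKM (SD, n = 3). The dioxygenase gene DOX1 went from 455 ± 37.2 to 151 ± 16.2 FPKM and the transporter gene PEN3 from 93.1 ± 5.10 to 35.7 ± 5.03 FPKM (SD, n = 3). In MYB2-OE, E12A11, of the PEBP family, went from 6.93 ± 1.19 to 51 ± 10.9 FPKM and NAC6 from 4.57 ± 1.82 to 17.1 ± 2.15 FPKM (SD, n = 3). PAD3, a camalexin synthesis gene, measured 0.340, 3.29 and 0.530 FPKM there against 9.75 to 10.9 FPKM in Col, and AZI1, a lipid transfer protein-like gene of systemic immunity, 5.40, 57.0 and 6.02 FPKM against 138 to 143 FPKM. Replicate 2 was the nearest to Col for both, as it was for KIN1 and LEA14.

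In MYB2-SRDX the largest rise was that of CBP60G, an immune regulator gene, which came from 1 library: the one with seed storage transcripts measured 52.8 FPKM, and the others 0.680 and 0.730 FPKM, inside or near the Col range of 0.240 to 0.700 FPKM. GRP-3, a glycine-rich protein gene, went from 14.2 ± 2.83 to 74.7 ± 1.88 FPKM (SD, n = 3). The largest falls were those of the morning genes of the circadian clock. LHY dropped from 60.4 ± 3.90 to 0.537 ± 0.152 FPKM, and CCA1 dropped from 31.7 ± 2.40 to 0.347 ± 0.0577 FPKM (SD, n = 3). These falls were seen in all 3 libraries, with a limma adjusted p of 1.01e-05 each. The time of harvest is not in the labels, and its part in the MYB2-SRDX values of PYL6, KIN2 and the other members was not tested.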
